A study of Mus musculus with 8 samples.

Results

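The genes described here are the matrix metalloproteinases (*Mmp*), the disintegrin metalloproteinases (*Adam*), the secreted *Adamts* proteases and the related *Adamtsl* proteins, the tissue inhibitors of metalloproteinases (*Timp*) and the lysyl oxidases (*Lox*, *Loxl*). Members were chosen by name: rows of the count table whose gene symbol has one of these stems followed by its number, or is *Lox* itself, and whose CPM (reads scaled to a common library total) reached 1 in 2 or more of the 8 libraries. The pattern met 90 rows of the 46040 in the table, and 51 of them passed the filter, out of 13542 genes that did so in all. The 8 libraries are RNA of the left ventricles (LVs) of C57BL/6 mice infused with angiotensin II (angII), a peptide hormone that raises blood pressure and overloads the heart, at 0.1 mg/kg/h from subcutaneous pumps until day 14. The mice were males of 5 to 7 months, and only survivors of the infusion could be sampled. 4 libraries come from mice without the tyrosine kinase domain of VEGFR-1, the receptor encoded by *Flt1* (VEGFR-1 TK-/-), a germline deletion, and 4 from littermate controls. LVs without angII were not analysed here, so that the data compare genotypes under pressure overload and say nothing of the effect of the overload itself.

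For every library the genotype tag and the library name stand against the sample title, which gives the other genotype. The tags define the groups used here, called control-tagged and TK-/- tagged. A log2 fold change above 0 means a higher level with the TK-/- tag, and should the titles be right, every sign below turns. The labels do not tie libraries to named animals, and p-values measure the spread between these libraries.

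The cardiac extracellular matrix is a net of collagens, elastic fibres, basement membranes and proteoglycans that couples myocytes and carries force. Metalloproteinases use a zinc ion to cut it: soluble and membrane-bound MMPs degrade collagens and other matrix proteins, ADAMs release ligands and receptors from the cell surface, and ADAMTS proteases trim procollagens and cleave proteoglycans. TIMPs block these enzymes by binding the zinc site, and lysyl oxidases do the opposite work of cross-linking collagen and elastin. In the overloaded heart fibroblasts, vessel cells and macrophages are known sources of these proteins, and the balance between cutting and cross-linking is known to shape stiffness and dilatation.

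Library totals ran from 12349639 to 16239670 counts with the control tag and from 11449137 to 13505888 with the TK-/- tag. Counting error is large at this depth for members near the filter. *Flt1* stood at 56.9 to 84.3 normalized CPM (CPM of the TMM-adjusted library size) in the control-tagged libraries and at 143.5 to 169.6 in the TK-/- tagged ones, a log2 fold change of 1.19 (SE 0.12, FDR 0.00808 in the quasi-likelihood test of edgeR). A whole-gene count does not check the deleted domain, and it was not used to choose between the labels. Myocyte markers such as *Myh6* and *Tnnt2* were high in every library, and the skeletal muscle myosins *Myh2* and *Myh4* had no count in any. Of the other skeletal muscle markers listed, *Tnni2* had 11 to 25 counts per library, *Tnnt3* 6 to 21 and *Myh1* at most 1. Summed markers of valve or cartilage varied from 14.2 to 76.6 normalized CPM in the control-tagged and from 5.77 to 68.1 in the TK-/- tagged libraries. Those of epicardium or mesothelium varied from 16.3 to 59.4 and from 17.9 to 58.5. The share of these tissues in the samples was not tested.

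Of the 51 members, 44 had at least 1 CPM in all 8 libraries, and 48 would have passed the filter on the libraries of either group alone. The members just inside the filter were *Mmp12*, *Adamts12* and *Adamts19*, whose second highest libraries had 1.05, 1.13 and 1.13 CPM. Just outside it were *Loxl4*, *Adam4* and *Mmp13*, at 0.985, 0.887 and 0.805 CPM by the same measure. Of the 39 rows outside, 20 had no count in any library and 29 had at most 10 counts in all libraries together. *Mmp13*, an interstitial collagenase, had 8, 19, 12 and 10 reads in the control-tagged libraries and 2, 1, 5 and 3 in the TK-/- tagged libraries. Its groups did not overlap, but it was too scarce to enter the test and this is a description chosen after its values were seen. *Mmp8*, the collagenase of neutrophils, had 15 reads in the 8 libraries together. *Loxl4*, the remaining lysyl oxidase, had 7, 20, 16 and 6 reads against 9, 10, 9 and 10.

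Members are spread over 19 chromosomes, and 18 of them share exon bases with another gene, 16 on the opposite strand only. Whether the counts kept the strands apart is not given in the sources used here. The cluster of *Mmp* genes on chromosome 9 holds 10 rows of the table, of which 2 were members: *Mmp3* with 1285 reads and *Mmp12* with 78 in the 8 libraries together, while *Mmp13* had 60 and *Mmp10* 1. *Adamts1* and *Adamts5* lie 53059 bp apart on chromosome 16, and *Adamts8* and *Adamts15* 20109 bp apart on chromosome 9. A promoter sequence of RefSeq on GRCm38.p6 was found for 30 of the 51 members, and the 250 bases before each start were searched on both strands for the AP-1 element TGANTCA, a site bound by Fos and Jun proteins that is known from *MMP* promoters. It was held by 3 of 30 members, *Adam19*, *Mmp3* and *Mmp12*, which is 10%, against 7.8% of 27025 genes. The promoters of *Mmp3* and *Mmp12* are shown because these neighbours are the members in the cluster and each has a window with the element. Each runs 5′ to 3′ over the 100 bases before the start on the plus strand (chr9:7445722-7445821 and chr9:7347274-7347373), with the AP-1 element in capitals.
*Mmp3*: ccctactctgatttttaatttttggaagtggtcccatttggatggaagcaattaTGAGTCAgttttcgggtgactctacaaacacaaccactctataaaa
*Mmp12*: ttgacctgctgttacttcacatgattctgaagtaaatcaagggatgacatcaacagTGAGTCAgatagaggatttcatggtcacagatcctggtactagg

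The element begins 46 bases before the start of *Mmp3* and 44 bases before the RefSeq start of *Mmp12* that is shown. RefSeq gives *Mmp12* a further start, at the 5′ end of the gene as GENCODE M21 has it (chr9:7344381-7369499), and the window before that start (chr9:7344147-7344396) does not hold the element. The window shown lies inside the gene model. On both strands of the same windows, the hypoxia response element ACGTG was held by 6 of 30 members (20%) and by 18.5% of all genes, and the TEAD element GGAATG by 2 of 30 (6.7%) and by 14.4%. A match is a run of letters in this window and not a measured site.

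Levels were compared between genes per kb of exon. *Adamtsl5*, an ADAMTS-like protein without protease domain, had the highest level with 45.6 ± 2.74 normalized CPM per kb (SD, n = 8). *Mmp2*, the gelatinase of fibroblasts, followed at 41.8 ± 10.5, then *Timp3*, the inhibitor bound to the matrix, at 38.3 ± 7.24, *Loxl1*, which cross-links elastin, at 36.2 ± 11.6, and *Timp2*, an inhibitor that also takes part in the activation of pro-MMP2, at 33.8 ± 6.25. Neighbours in this order differed by less than the larger of their SDs. These 5 made up 44.7% of the summed level per kb of all members.

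The lowest levels per kb were those of *Adamts19* (0.0484), *Adamts12* (0.0743) and *Mmp12* (0.106), the elastase of macrophages. The highest level was 943 times the lowest, the median member stood at 3.63, and 22 of the 51 members reached the median level of all genes tested. Within roles the order was steep. *Mmp2* exceeded *Mmp9*, the gelatinase of leukocytes, which stood at 0.319 normalized CPM per kb, and *Mmp15* (25.7) exceeded the other membrane-bound MMPs *Mmp14* (6.65) and *Mmp17* (0.748) in every library. The inhibitors *Timp4* and *Timp1* lay at 15.9 and 14.4, and *Adam15* at 32.6 was the highest of the sheddases.

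**Figure D1:**
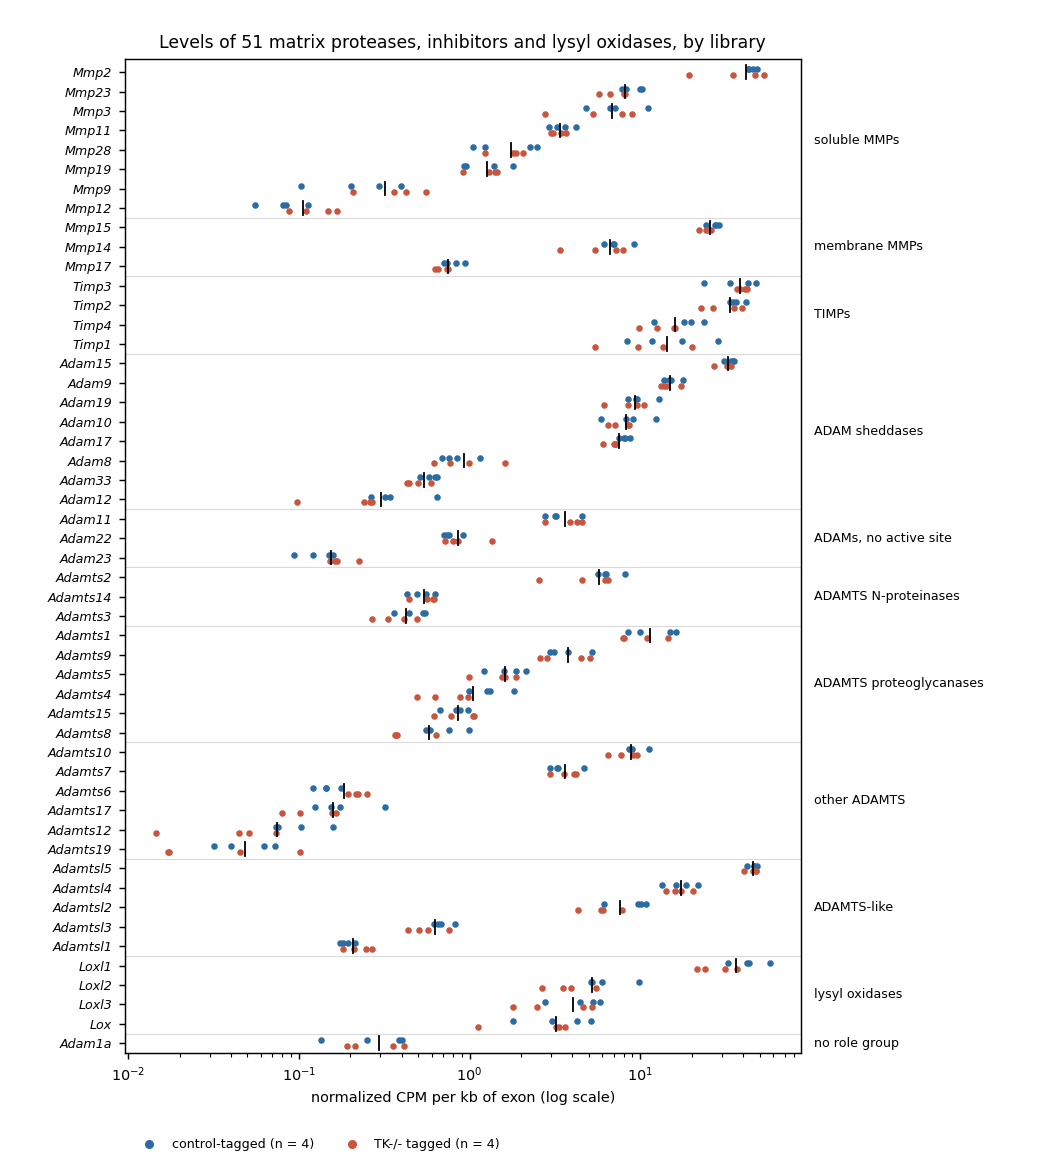
Each point is the level of a member in 1 library, in normalized CPM per kb of exon on a log axis, coloured by genotype tag (4 libraries each), and the black bar is the mean of the 8 libraries. Means run from 0.0484 for *Adamts19* to 45.6 for *Adamtsl5*, and for most members the points of both tags lie over each other.

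No member passed the thresholds of the study, an FDR under 0.1 over all genes tested and a 1.5-fold difference in either direction, and the lowest FDR of a member was 0.453. The thresholds called 1 of 13542 genes, or 0.00738%, so that none among 51 is what the background share gives. The likelihood ratio test of edgeR called 53 genes and DESeq2 32, without a member in either. At an unadjusted p under 0.05 stood 11 members, or 21.6%, against 8.96% of all genes tested. Of these 10 were lower in the TK-/- tagged libraries, where 5.64% of all genes were lower at that p, and 1 was higher.

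By direction, 14 members were higher in the TK-/- tagged libraries and 37 lower, so that 27.5% were higher where 49.7% of all genes were. The median log2 fold change of the members was -0.21, against -0.0012 for all genes tested, and values ran from -1.17 (*Adamts12*) to 0.62 (*Mmp9*). A 1.5-fold difference in either direction was reached by 11 members and by 3.6% of all genes. In 4 members the groups did not overlap, 7.84% of members against 4.98% of all genes. *Adamts4*, *Adam17* and *Adamts12* were the 3 of them that were lower, where 2.53% of all genes were, and *Adamts6* was the 1 that was higher. *Adamts12* passed the filter through control-tagged libraries 2 and 4 alone, so that its place in these counts follows in part from the filter. The same holds for *Mmp12*, among the 11 at 1.5-fold, which passed through TK-/- tagged libraries 1 and 2 alone. *Mmp9*, *Adamts17* and *Adamts6*, also among these 11, had group means of at most 1.72 normalized CPM, where counting error is large.

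Which libraries were high or low was not spread evenly over the members. Control-tagged library 2 had the highest value of 21 members, among them *Loxl2*, *Adam12*, *Timp1* and *Mmp14*. Control-tagged library 3 had that of 13, among them *Loxl1*, *Mmp23* and *Adam15*. TK-/- tagged library 3 had the lowest value of 17, among them *Loxl1*, *Loxl2*, *Mmp2*, *Mmp14*, *Timp1* and *Adamts2*, and TK-/- tagged library 2 of 12, among them *Adam17*, *Mmp15* and *Adamts10*. Without control-tagged library 2 the number of members at an unadjusted p under 0.05 was 5 of 49 (10.2%, against 7.73% of all genes) and the median -0.11. Without TK-/- tagged library 3 the number was 6 of 51 (11.8%, against 6.2%), and without TK-/- tagged library 2 it was 7 of 49 (14.3%, against 5.25%). *Adamts4*, *Loxl1*, *Loxl2* and *Adamtsl2* had an unadjusted p under 0.05 whichever library was left out, and the other 7 of the 11 did not.

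**Figure D2:**
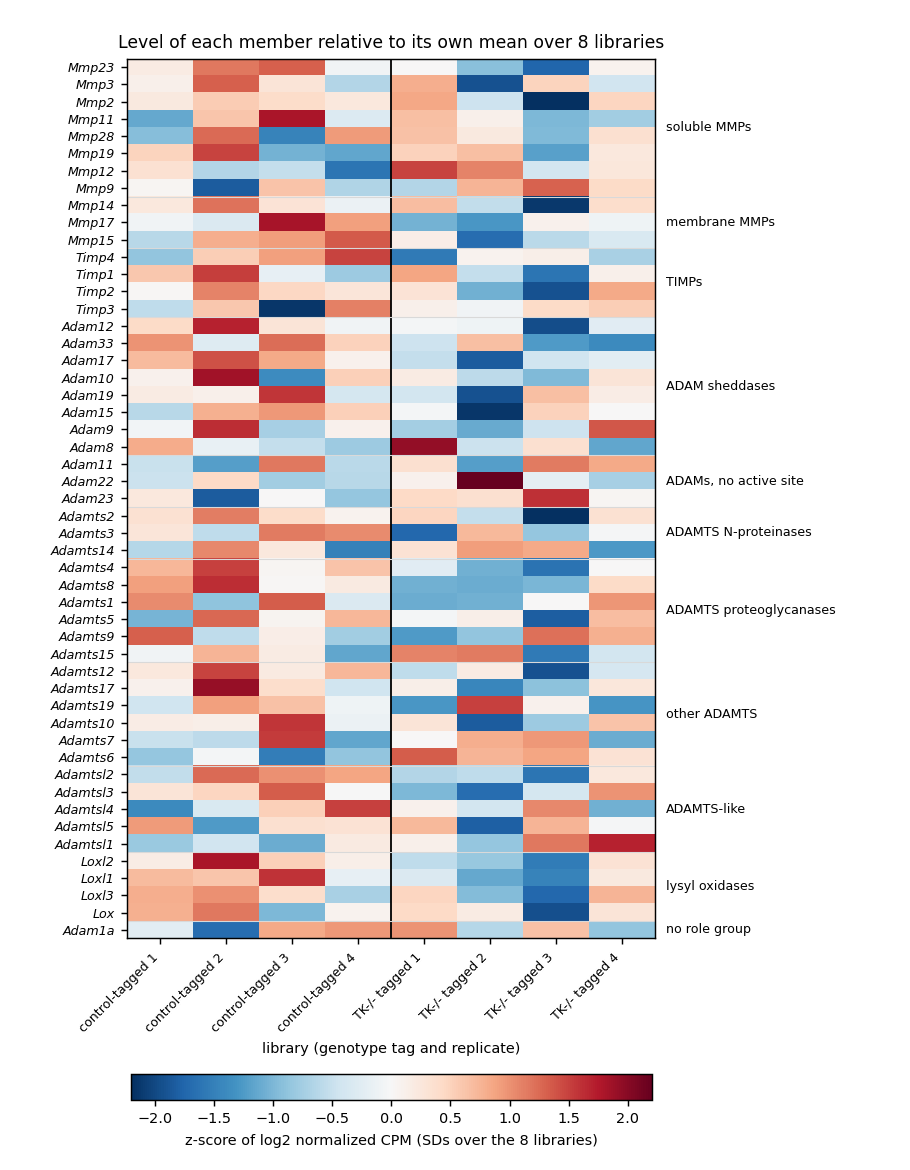
Each row is a member and each column a library; the colour is the level relative to the member's own mean, in SDs of log2 normalized CPM over the 8 libraries, red above and blue below. Control-tagged library 2 is the highest for 21 members and TK-/- tagged library 3 the lowest for 17.

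Markers of cell types also varied between libraries. Except for the highest fibroblast sum, the extremes of the sums given here lay in control-tagged libraries 2 and 3 and TK-/- tagged libraries 2 and 3. These libraries also held the extremes of many members. The sum of 7 fibroblast markers lay between 1900.0 and 2175 normalized CPM in the control-tagged libraries and between 1437 and 2326 in the TK-/- tagged libraries. It was lowest in TK-/- tagged library 3 and highest in TK-/- tagged library 4. All 7 were lower in the TK-/- tagged group without an unadjusted p under 0.05. TK-/- tagged library 3 also had the highest sum of 7 myocyte markers, 82342, and control-tagged library 2 the lowest, 48441. The sum of 7 macrophage and leukocyte markers ran from 393 to 523 in the control-tagged group and from 265 to 404 in the TK-/- tagged group, with its highest value in control-tagged library 2 and its lowest in TK-/- tagged library 3. All 7 were lower in the TK-/- tagged group, *Csf1r* and *Itgam* at an unadjusted p under 0.05.

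The sum of 6 endothelial markers did not overlap between the groups: 1161 to 1458 in the control-tagged libraries and 1061 to 1154 in the others. Its highest value was in control-tagged library 3 and its lowest in TK-/- tagged library 2. Of these genes *Pecam1*, *Cdh5* and *Tie1* had an unadjusted p under 0.05, each lower in the TK-/- tagged group. *Cldn5*, *Emcn* and *Kdr* did not, with log2 fold changes of -0.27, -0.09 and 0.01. Taken singly, each of the 6 genes overlapped between the groups. Pericyte and smooth muscle markers summed to 1206 to 1750 and 818 to 1312, with their extremes in the same libraries as the endothelial sum. An unadjusted p under 0.05 was reached by 4 of 7, *Pdgfrb*, *Rgs5*, *Kcnj8* and *Cspg4*, each lower in the TK-/- tagged group. It was not reached by *Acta2*, *Myh11* and *Tagln*, with log2 fold changes of -0.43, -0.02 and 0.001. The part of the cell types in the members' differences was not tested, and in bulk tissue fewer cells of a type and less RNA per cell cannot be told apart.

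Soluble MMPs that passed the filter numbered 8 of 17 listed, 3 higher and 5 lower with the TK-/- tag, with a median log2 fold change of -0.05. *Mmp2* stood at 145, 162, 155 and 146 normalized CPM in the control-tagged libraries and at 178, 117, 64.8 and 158 in the TK-/- tagged libraries. The TK-/- tagged libraries thus held both the highest and the lowest value, with an SD of 50.04 against 7.97, and the log2 fold change was -0.23 (SE 0.24, FDR 0.800), with -0.01 without TK-/- tagged library 3 and -0.42 without TK-/- tagged library 1. *Mmp9* had 1.05, 0.363, 1.41 and 0.720 normalized CPM against 0.731, 1.51, 1.98 and 1.28, a log2 fold change of 0.62 (SE 0.42, FDR 0.694). Its groups overlapped, and control-tagged library 2, the highest for many members, was here the lowest, without which the log2 fold change was 0.36 (0.94 without control-tagged library 3 and 0.38 without TK-/- tagged library 3).

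*Mmp3*, stromelysin 1, lay between 8.64 and 20.03 normalized CPM in the control-tagged libraries and between 4.97 and 16.01 in the others, with a log2 fold change of -0.26 (SE 0.32). *Mmp12* was at 0.823, 0.581, 0.605 and 0.4 against 1.22, 1.07, 0.632 and 0.797, a log2 fold change of 0.61 (SE 0.35, FDR 0.639), with overlapping groups, and it passed the filter through TK-/- tagged libraries 1 and 2 alone. The soluble MMP with an unadjusted p under 0.05 was *Mmp23* (chr4:155650655-155653384), an MMP held in the membrane until it is cut free. It had 19.3, 23.3, 24.0 and 18.4 normalized CPM in the control-tagged libraries and 18.7, 15.6, 13.4 and 19.0 in the TK-/- tagged libraries. Control-tagged library 4 lay below TK-/- tagged libraries 1 and 4, so that the groups overlapped. The log2 fold change was -0.35 (SE 0.14, unadjusted p 0.028, FDR 0.519), with an exact permutation p of 0.0857.

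The 3 membrane-bound MMPs that passed the filter were all lower in the TK-/- tagged libraries, with a median log2 fold change of -0.22 and none at an unadjusted p under 0.05. *Mmp14*, the collagenase of the cell surface that activates pro-MMP2, had 41.1, 54.9, 41.9 and 36.8 normalized CPM against 47.0, 32.5, 20.1 and 43.0. TK-/- tagged library 3 was the lowest, as it was for *Mmp2*, and the log2 fold change was -0.29 (SE 0.22, FDR 0.725), or -0.10 without that library. For *Mmp15* the log2 fold change was -0.16 (SE 0.09) and for *Mmp17* -0.22 (SE 0.16).

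All 4 inhibitors were measured, 1 higher and 3 lower, with a median of -0.34. *Timp4*, the inhibitor known for its restriction to heart and a few other tissues (chr6:115241892-115252205), had 70.8, 106, 117 and 139 normalized CPM in the control-tagged libraries and 57.9, 92.9, 93.9 and 74.0 in the TK-/- tagged libraries. Control-tagged library 1 lay inside the range of the TK-/- tagged group and the other control-tagged libraries above it. Its log2 fold change was -0.44 (SE 0.20, unadjusted p 0.0469, FDR 0.554), and the exact permutation p was 0.171.

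*Timp1*, the inhibitor known to be induced by injury, ranged from 7.44 to 25.3 normalized CPM in the control-tagged and from 4.82 to 18.0 in the TK-/- tagged libraries (log2 fold change -0.43, SE 0.40, and -0.03 without control-tagged library 2, -0.19 without TK-/- tagged library 3 and -0.79 without TK-/- tagged library 1). *Timp2* ranged from 130.2 to 161 and from 87.9 to 153 (log2 fold change -0.24, SE 0.16). *Timp3* had 272, 347, 193 and 388 against 313, 301, 335 and 343, with a spread of 86.0 (SD) in the control-tagged group and 19.4 in the TK-/- tagged group. Its log2 fold change of 0.11 (SE 0.18) was -0.06 without control-tagged library 3.

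Sheddases with a metalloprotease active site numbered 8 that passed of 10 listed, 1 higher and 7 lower, with a median of -0.21. Of the remaining listed genes *Adam28* had no count in any library, and *Adamdec1* is not met by the name pattern. *Adam17* (chr12:21323509-21373632), the enzyme that frees tumour necrosis factor and ligands of the EGF receptor, had 57.5, 62.4, 58.4 and 53.7 normalized CPM in the control-tagged libraries and 50.1, 43.1, 50.6 and 51.7 in the TK-/- tagged libraries. The groups did not overlap, and the lowest control-tagged library lay 2 normalized CPM above the highest TK-/- tagged one. The difference was small, a log2 fold change of -0.25 (SE 0.09, unadjusted p 0.0191, FDR 0.492). The exact permutation p was 0.0286, the smallest that 4 against 4 libraries can give. Groups that do not overlap always have this value, so that it adds nothing to the lack of overlap. *Adam17* shares 311 exon bases with *Iah1* on the opposite strand, which had a log2 fold change of -0.17 (SE 0.12).

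*Adam12*, a protease of activated fibroblasts and regenerating muscle (chr7:133883199-134232146), stood at 3.59, 6.82, 3.36 and 2.80 normalized CPM against 2.84, 2.75, 1.03 and 2.55. Control-tagged library 2 was far above and TK-/- tagged library 3 far below the others, and the groups overlapped only through control-tagged library 4 and TK-/- tagged library 1. The log2 fold change was -0.86 (SE 0.35, unadjusted p 0.0304, FDR 0.521, exact permutation p 0.0571), and -0.51 without control-tagged library 2. *Adam10*, the sheddase of Notch receptors, had means of 43.7 ± 12.9 and 37.6 ± 5.06 normalized CPM (SD, n = 4 each), *Adam15* of 207 ± 12.03 and 194 ± 18.4, and *Adam19*, which is needed in heart valve development, of 71.6 ± 13.4 and 61.8 ± 13.5. Their log2 fold changes were -0.21 (SE 0.19), -0.10 (SE 0.10) and -0.21 (SE 0.17), and their groups overlapped. *Adam11*, *Adam22* and *Adam23*, ADAMs without an active site that act as binding partners and are known from synapses, were the 3 of their role that passed, and were each higher (log2 fold changes 0.17, 0.25 and 0.44), none at an unadjusted p under 0.05.

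**Figure D3:**
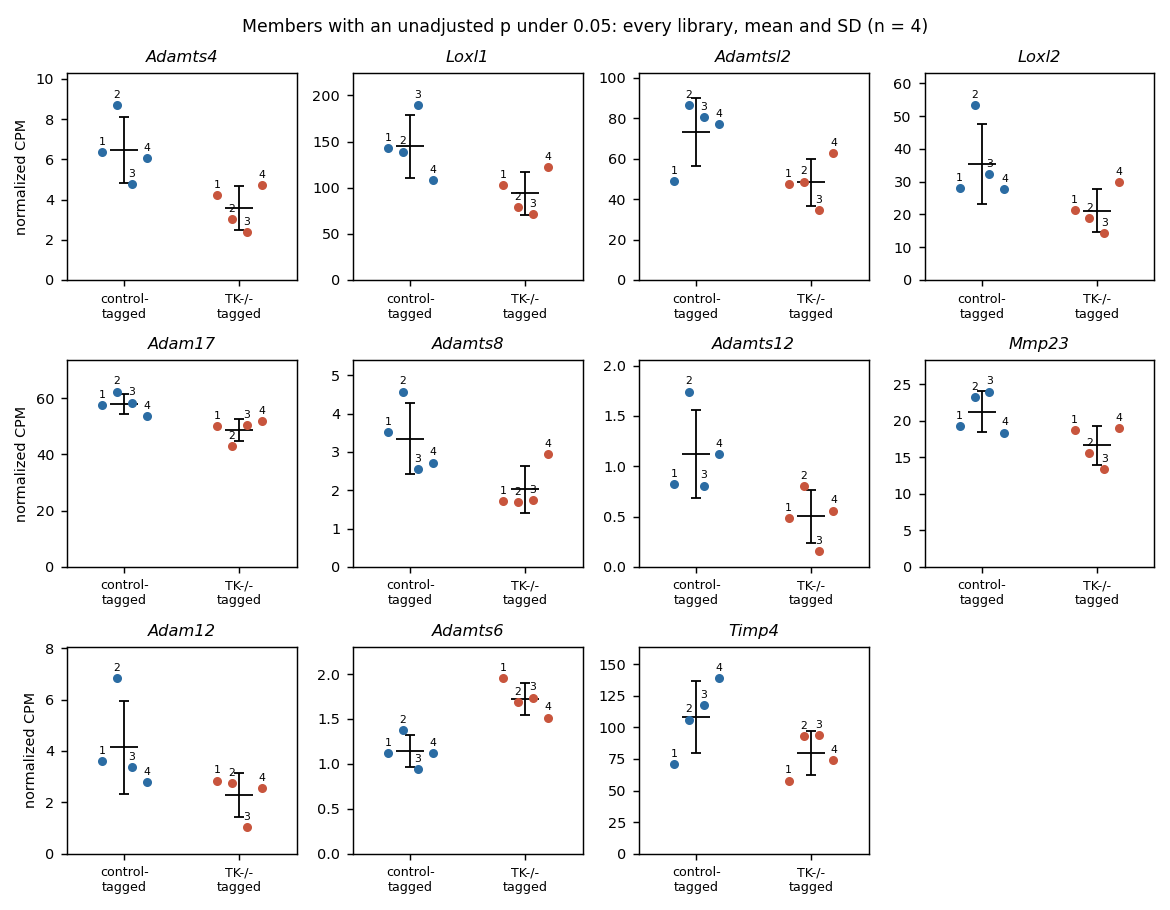
Normalized CPM of the 11 members with an unadjusted p under 0.05, 1 panel each with its own axis from 0; points are libraries numbered by replicate, and the bars are the mean and SD of 4. Groups are apart in *Adamts4*, *Adam17*, *Adamts12* and *Adamts6*, and in the other 7 panels they overlap.

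Procollagen N-proteinases, which remove the amino-terminal propeptide before fibrils form, showed a median of -0.32 over 3 members. *Adamts2*, the best known of them, ranged from 52.7 to 76.1 normalized CPM in the control-tagged and from 23.8 to 60.5 in the TK-/- tagged libraries, with TK-/- tagged library 3 the lowest (log2 fold change -0.41, SE 0.24, FDR 0.637, and -0.19 without that library).

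Proteoglycanases, which cut aggrecan and versican, passed the filter in 6 of 7 listed, 1 higher and 5 lower, with a median of -0.22. *Adamts4* (chr1:171250421-171260637) had 6.36, 8.71, 4.78 and 6.08 normalized CPM in the control-tagged libraries and 4.23, 3.02, 2.37 and 4.70 in the TK-/- tagged libraries. The groups did not overlap, but control-tagged library 3 and TK-/- tagged library 4 lay next to each other. Its log2 fold change of -0.85 (SE 0.25, unadjusted p 0.00511) had the lowest p of all members, an FDR of 0.453 and an exact permutation p of 0.0286. Across all genes tested it ranked at 147 by p.

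*Adamts8* (chr9:30942562-30963838) had 3.52, 4.57, 2.56 and 2.72 normalized CPM against 1.71, 1.69, 1.74 and 2.95. TK-/- tagged library 4 lay inside the control-tagged range and the other TK-/- tagged libraries below it. For *Adamts8* the log2 fold change was -0.72 (SE 0.27, unadjusted p 0.0219, FDR 0.505), with an exact permutation p of 0.0857. Its neighbour *Adamts15* had a log2 fold change of 0.06 (SE 0.19). *Adamts1*, a protease that also binds VEGF, had 78.7, 44.9, 85.6 and 53.0 normalized CPM against 42.3, 42.7, 58.15 and 77.2, and its neighbour *Adamts5* ranged from 13.1 to 23.2 and from 10.7 to 20.1. Both spread widely within groups, and their log2 fold changes were -0.25 (SE 0.23) and -0.18 (SE 0.20). *Adamts9* had means of 56.7 ± 15.7 and 56.6 ± 18.5 normalized CPM (SD, n = 4 each), a log2 fold change of -0.003 (SE 0.23).

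Of the other ADAMTS proteases 6 of 9 passed. *Adamts12* (chr15:11064790-11349231), which cuts cartilage oligomeric matrix protein, had the lowest log2 fold change of the members, -1.17 (SE 0.45, unadjusted p 0.0231, FDR 0.506). No TK-/- tagged library reached 1 CPM, and the gene entered the test through the group where it was high, so that these values are a description. Its levels were 0.823, 1.74, 0.807 and 1.12 normalized CPM in the control-tagged libraries and 0.488, 0.799, 0.158 and 0.558 in the TK-/- tagged libraries. The groups were apart by less than 0.01 normalized CPM, at counts so low that 1 read decides whether they overlap. *Adamts6* (chr13:104287835-104496695), a protease of fibrillin microfibrils needed for heart development, was the only one of the 11 members with an unadjusted p under 0.05 that was higher with the TK-/- tag, with 1.12, 1.38, 0.942 and 1.12 normalized CPM against 1.95, 1.69, 1.74 and 1.51. Every TK-/- tagged library was above every control-tagged one, with a log2 fold change of 0.59 (SE 0.25, unadjusted p 0.0343, FDR 0.522) and an exact permutation p of 0.0286. The groups were apart by 0.135 normalized CPM. Its reads were 15, 19, 14 and 14 against 24, 19, 22 and 19, so that before scaling the groups met at 19. By DESeq2 the unadjusted p was 0.0771. *Adamts10*, its closest relative, had group means of 77.5 ± 10.01 and 67.9 ± 11.7 normalized CPM (SD, n = 4 each) and a log2 fold change of -0.19 (SE 0.13).

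ADAMTS-like proteins have no protease domain and bind fibrillin microfibrils. *Adamtsl2* (chr2:27079379-27108981), known for binding a TGF-β binding protein, had 49.0, 86.7, 80.6 and 77.2 normalized CPM in the control-tagged libraries and 47.3, 48.6, 34.6 and 62.7 in the TK-/- tagged libraries. Control-tagged library 1 lay within the TK-/- tagged range and the other control-tagged libraries above it. The log2 fold change was -0.60 (SE 0.19, unadjusted p 0.00945, FDR 0.464), with an exact permutation p of 0.0571. The abundant *Adamtsl5* lay within 192 to 228 normalized CPM in all 8 libraries, a log2 fold change of -0.02 (SE 0.09), and *Adamtsl4*, *Adamtsl3* and *Adamtsl1* had -0.05, -0.29 and 0.26.

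Lysyl oxidases had the lowest median of any role with more than 1 member, -0.50, and all 4 that passed the filter were lower in the TK-/- tagged libraries. *Loxl1* (chr9:58287738-58313186) had 143, 139, 189.9 and 108 normalized CPM in the control-tagged libraries and 103, 79.4, 71.1 and 122 in the TK-/- tagged libraries. The ranges overlapped through control-tagged library 4 and TK-/- tagged library 4. The log2 fold change was -0.63 (SE 0.19, unadjusted p 0.00686, FDR 0.453), with an exact permutation p of 0.0571. *Loxl2* (chr14:69609068-69695834), which cross-links collagen IV and interstitial collagens and is known from stressed hearts, had 28.1, 53.5, 32.4 and 27.7 against 21.2, 19.0, 14.4 and 29.9. TK-/- tagged library 4 lay within the control-tagged range and the others below it. The log2 fold change was -0.75 (SE 0.24, unadjusted p 0.0102, FDR 0.464), with an exact permutation p of 0.0857. Without control-tagged library 2 it was -0.48.

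*Loxl3* and *Lox* were less clear. *Loxl3* ranged from 12.7 to 26.7 normalized CPM in the control-tagged and from 8.22 to 23.9 in the TK-/- tagged libraries (log2 fold change -0.38, SE 0.31), and *Lox*, the enzyme that names the family, had 20.4, 24.7, 8.61 and 14.6 against 17.3, 15.3, 5.37 and 16.02 (log2 fold change -0.34, SE 0.35). In all 4 genes TK-/- tagged library 3 was the lowest of its group. That library had the lowest sums of fibroblast and of macrophage and leukocyte markers and the highest sum of myocyte markers. The endothelial sum and the pericyte and smooth muscle sum were lowest in TK-/- tagged library 2. A link of these sums with the lysyl oxidases was not tested.

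**Figure D4:**
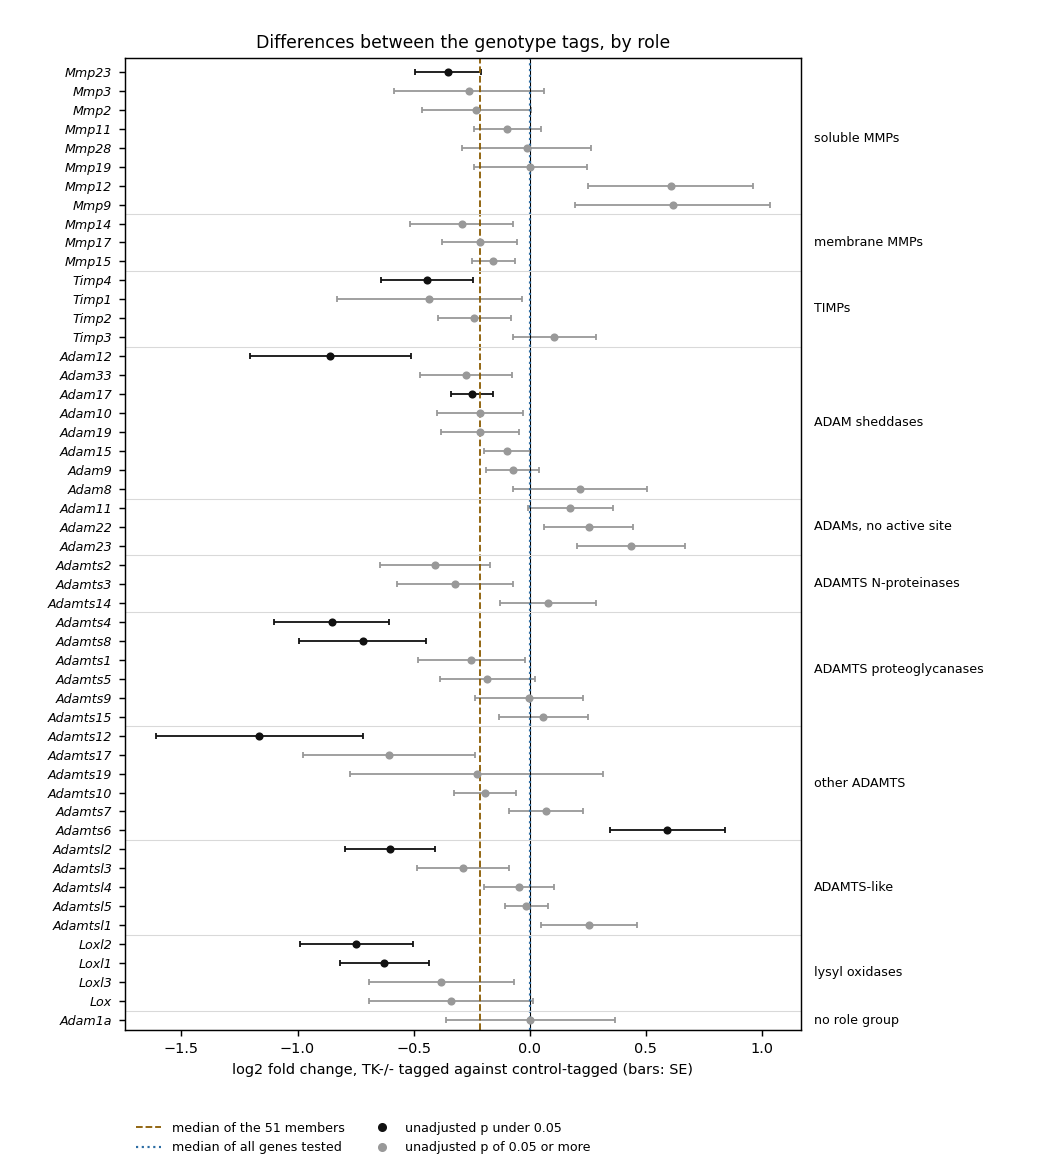
Log2 fold change of each of the 51 members, TK-/- tagged against control-tagged, with bars of 1 SE, grouped by role; black points have an unadjusted p under 0.05. The dashed line at -0.21 is the median of the members and the dotted line at -0.0012 that of all genes tested; all lysyl oxidases and membrane-bound MMPs lie below 0.

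Likeness of pattern was described by Pearson's r of log2 normalized CPM over the 8 libraries, which share depth and tissue makeup as well as genotype. *Loxl1* and *Mmp23* were each other's nearest member (r = 0.938), as were *Adamts12* and *Adam12* (0.921) and *Adamts4* and *Loxl2* (0.918). Among all genes tested *Adamts4* was most like *Cdc42se1* (0.991), the highest r found. *Loxl2* was most like *Papln* (0.99), *Adamts8* most like *Tgfb1* (0.988) and *Adamtsl2* most like *Rnf145* (0.981). *Adam12* was most like *Mest* (0.98), with *Lyz2* and *Espl1* next (0.979 each). These are a choice from the matches of the 11 members with an unadjusted p under 0.05. Each is the highest r out of 13542 genes over 8 libraries, and so wide a search gives high values by itself. *Adamts6* had no close member, with *Mmp12* the nearest at 0.638.

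Genes that work with the members mostly lay on the same side of 0. Of 32 partner genes, namely activating proteases, other inhibitors and enzymes of collagen processing, 30 were tested. In the TK-/- tagged libraries 4 were higher (13.3%, against 49.7% of all genes) and 26 lower, with a median of -0.23. An unadjusted p under 0.05 was reached by 8 (26.7%), all lower, where 5.64% of all genes were lower at that p. *Pcolce2*, which enhances the procollagen C-proteinase, had means of 29.1 and 19.9 normalized CPM (log2 fold change -0.55, SE 0.16) and *Fap*, a protease of activated fibroblasts, 6.74 and 4.59 (-0.55, SE 0.17). *Serpinh1*, the collagen chaperone, had 517 and 396 (-0.38, SE 0.14).

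Matrix substrates of the members had a median of -0.45 over 27 tested of 28. Of these 2 were higher (7.41%, against 49.7% of all genes) and 25 lower. An unadjusted p under 0.05 was reached by 11 (40.7%), all lower, where 5.64% of all genes were lower at that p. *Fbn1*, the fibrillin that ADAMTS and ADAMTS-like proteins bind, had means of 189 and 104 normalized CPM (log2 fold change -0.86, SE 0.22), and the basement membrane collagens *Col4a1* and *Col4a2* had -0.54 (SE 0.18) and -0.51 (SE 0.16). Fibrillar collagens did not reach that p, with -0.39 (SE 0.31) for *Col1a1* and -0.51 (SE 0.34) for *Col3a1*. Versican (*Vcan*), the substrate of the proteoglycanases in the heart, had -0.70 (SE 0.26).

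Ligands and receptors released by sheddases were tested in 17 of 20, 4 higher (23.5%, against 49.7% of all genes) and 13 lower, with a median of -0.21. Of all genes 5.64% were lower at an unadjusted p under 0.05, and of these ligands and receptors 4 (23.5%), with none higher at that p. These were *Hbegf*, the EGF receptor ligand freed by ADAM17 and ADAM12 (35.1 and 24.9 normalized CPM, log2 fold change -0.49, SE 0.13), the Notch receptor *Notch1* (-0.37, SE 0.10), its ligand *Dll4* (-0.35, SE 0.13) and the endothelial cadherin *Cdh5* (-0.38, SE 0.12). None of the genes in these lists passed the FDR threshold, and the lists were chosen with earlier results of these data known. Some genes recur: *Col1a1*, *Dcn* and *Lum* are fibroblast markers and matrix substrates, and *Cdh5* is an endothelial marker and a shed receptor. The lists and the markers are therefore not independent of each other.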

How the data were processed

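RNA of 8 LVs was sequenced, 4 per genotype tag. Per the labels and the study's methods, reads were trimmed by the authors (Trim Galore 0.4.4), aligned to GRCm38 (STAR 2.5.4b) and assigned to genes (featureCounts). The deposited values are raw counts of reads per gene in 1 table. Labels and methods disagree on the RNA selection (depletion of ribosomal RNA or poly-A selection), and library names mention cardiomyocytes although the source is LV tissue. How strands and reads with several alignments were counted is not given in the sources used here. The effect on members that share exon bases with another gene depends on these settings and was not tested.

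From the counts, genes with at least 1 CPM in at least 2 libraries were kept and scaled with trimmed mean of M values (TMM) factors of 0.917 to 1.12. The test was edgeR's quasi-likelihood F test (version 4.0.16, R 4.3.3) on all 8 libraries without covariates, with p-values adjusted by Benjamini-Hochberg over the 13542 genes (FDR). The biological coefficient of variation was 15.1%. For single members an exact permutation test (2-sided) was added on the log2 of normalized CPM with a prior count of 2, over all 70 assignments of the libraries to 4 and 4. Coordinates and exon lengths come from GENCODE M21, in which 935 identifiers of the table are missing, and promoters from RefSeq. The fit was tested on simulated data. Libraries of 1 group differed by more than sampling noise (chi-square per degree of freedom 6.77 to 49.9), so that none was counted as a repeat of another.

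Alternatives were the likelihood ratio test used by the authors, DESeq2 1.42.0, RLE size factors, total counts, no filter, filterByExpr, robust dispersion, other thresholds, each library left out and the replicate number as a block. Members, role groups and gene lists were chosen with earlier results of these data known. Members described with values are those with an unadjusted p under 0.05 or without overlap between groups, those most studied in the overloaded heart, the highest and lowest per kb, and those next to the filter. The reads of *Mmp13*, the values of some further members within a role, and the genes named from the lists were picked after they were seen. The values of some genes covered by the lists are not reported here.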

Additional observations from a re-analysis of the deposited data

Results flagged for a closer look

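In 4 of 102 groups of 4 libraries (51 members in both groups) 1 library lay far from the other 3, its gap to the nearest being a larger share of the group's range than the 95% critical value of Dixon's test. Chance gives about 5% of groups. *Adamts8* had 2.95 normalized CPM in TK-/- tagged library 4, with the others at 1.69 to 1.74. *Adam12* had 1.03 in TK-/- tagged library 3, with the others at 2.55 to 2.84. *Lox* had 5.37 in the same library, with the others at 15.3 to 17.3. *Adamts10* had 92.3 in control-tagged library 3, with the others at 70.4 to 73.9.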

How the results depend on the processing

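Under all 16 alternatives in test, scaling, filter, libraries or block, and at an FDR under 0.05 or without a fold threshold, 0 members were called. The lowest FDR of a member was 0.131 by the likelihood ratio test, 0.148 by DESeq2 and 0.171 without a filter. Over all genes those settings called 53, 32 and 23, and fits without 1 library 1 to 3. The members' median log2 fold change stayed below 0, from -0.25 to -0.11, the latter without control-tagged library 2, and 11 to 15 members were higher. Members at an unadjusted p under 0.05 numbered 5 to 12 when 1 library was left out, with 5 without control-tagged library 2, 6 without TK-/- tagged library 3 and 7 without TK-/- tagged library 2, and the cause was not tested. Of 429 refits of 27 named members 425 kept their direction and stayed uncalled. The 4 others changed sign: *Adamts9*, which ran from -0.19 to 0.19 when 1 library was left out, was above 0 without control-tagged library 1 (0.19), TK-/- tagged library 1 (0.14) and TK-/- tagged library 2 (0.10), and *Timp3*, which ran from -0.06 to 0.25, was below 0 without control-tagged library 3 (-0.058).

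Same-numbered libraries deviated together with r of -0.029, 0.029, 0.343 and -0.0555 for numbers 1 to 4. The r between libraries of unlike number was not computed, so that these values do not decide whether the numbers pair the libraries. With the replicate number as a block (replicate block), 12 members had an unadjusted p under 0.05, 15 were higher, the median was -0.21 and 1 gene was called, none of them a member. In that quasi-likelihood fit *Lox* (unadjusted p 0.0474) and *Adamts2* (0.0488) came under 0.05, and *Adamts6* (0.0616) did not. Genes near the filter are limited by depth: filterByExpr tested 49 members.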
